A study of Apis mellifera with 18 samples.

Results

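The brain and the Malpighian tubules of honey bee (Apis mellifera) workers were compared by RNA sequencing, organ against organ within the same bees. The comparison takes the libraries whose tissue label is Brain or Malpighian tubules and pairs them by patriline, a patriline being the workers of 1 colony that share a father. Patrilines P1, P7, P8, P11 and P24 gave 5 brain and 5 tubule libraries, 10 of the 18 libraries of the series, and P21 was left out because each of its pools held RNA of the other organ. All workers came from Colony 36, were marked on emergence, kept in their colony and collected at 7 days. Each bee was then fed clothianidin, a neonicotinoid insecticide, at 4.27 ppb in sucrose and frozen after 24 h. Both groups therefore share the same exposure and the same colony, and unexposed bees were not analysed here. A library holds 1 organ of 5 workers, each giving 300 ng of RNA, so a difference between bees within a pool cannot be seen.

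The bee brain is built of neurons and glia, with optic lobes behind the eyes and mushroom bodies that serve learning. Its main excitatory transmitter is acetylcholine, and the nicotinic acetylcholine receptor is the target of neonicotinoids. The Malpighian tubules are blind-ended excretory tubes that open where the midgut meets the hindgut. Their cells use a proton pump to drive ion and fluid secretion, clear urate, and carry out part of the metabolism of foreign compounds. The question asked of this comparison is which transcripts differ between the organ that holds the target of the insecticide and an organ that clears foreign compounds.

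The 10 libraries held 39722329 to 51605747 counts each. Levels are given as CPM, the counts of a transcript relative to the library total after scaling by TMM factors, which allow for a few very abundant transcripts taking up a library, and the values of 5 pools stand in the order P1, P7, P8, P11 and P24. A difference is the log2 of brain over tubules (logFC), so that a positive value means higher in brain. Transcripts specific to tubules stood in the P21 brain pool at 14.9% of their tubule level above the other brains, or 15.4% without subtracting these. Transcripts specific to brain stood in the P21 tubule pool at 10.3% of their brain level above the other tubules, or 11.7% without subtracting these. In the 5 brains used, tubule transcripts reached at most 0.602% of their tubule level, with nothing subtracted. In the P11 tubule pool, brain transcripts stood at 1.97% of their brain level, 0.523% above the other tubules over 190 transcripts. The P11 brain library stood apart from the other 4. Royal jelly genes, whose protein products are made in the hypopharyngeal glands of the head, took 28.1% of its counts, against 0.856% to 3.97% in the other brains, and the opsin Lop1 was also highest there. The P8 tubule library stood apart in another way, holding transcripts of the ventriculus, the midgut, at 11.4% of their ventriculus level above the other tubules, an estimate that rests on 18 transcripts. The gap was -3.42% to 2.08% in the other 4 tubules, each over its own set of 6 to 13 transcripts. Several digestive enzymes abundant in the ventriculus, given below, were also high in the P1 tubule pool, whose gap was -1.11%. Where leaving out 1 patriline moved a called logFC of the text by more than 1.5-fold, the value without it, or the pool that held the few reads of the lower organ, stands in the same paragraph. Of the named transcripts this was so for 22 without P11, 12 without P8, 9 without P24 and 6 each without P1 and P7.

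The organs differed in most of what they transcribed. Of 9986 transcripts tested, 4072 (40.8%) were called higher in brain and 3428 (34.3%) higher in tubules at an adjusted p under 0.05. The calls of each gene list below are to be read beside these shares. The calls at more than 4-fold were fewer, with 1394 transcripts (14.0%) higher in brain and 739 (7.40%) higher in tubules. These calls went the same way in 5 of 5 patrilines for 2132 of the 2133 transcripts. In 3485 transcripts (34.9%) every brain pool lay above every tubule pool, and in 2826 (28.3%) every tubule pool lay above every brain pool. The split of the calls depends on the scaling. With TMM factors 54.3% of the called transcripts were higher in brain and the median logFC of all tested was 0.14, while with library size alone 71.7% were higher in brain and the median was 0.64. The shift turned the sign of the median logFC in 2 of the 23 lists, the antioxidant enzymes and the heat shock proteins, and calls of single transcripts that it changed are given where they stand. In bulk RNA a lower level from fewer cells of a type and one from less RNA per cell cannot be told apart.

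**Figure D1:**
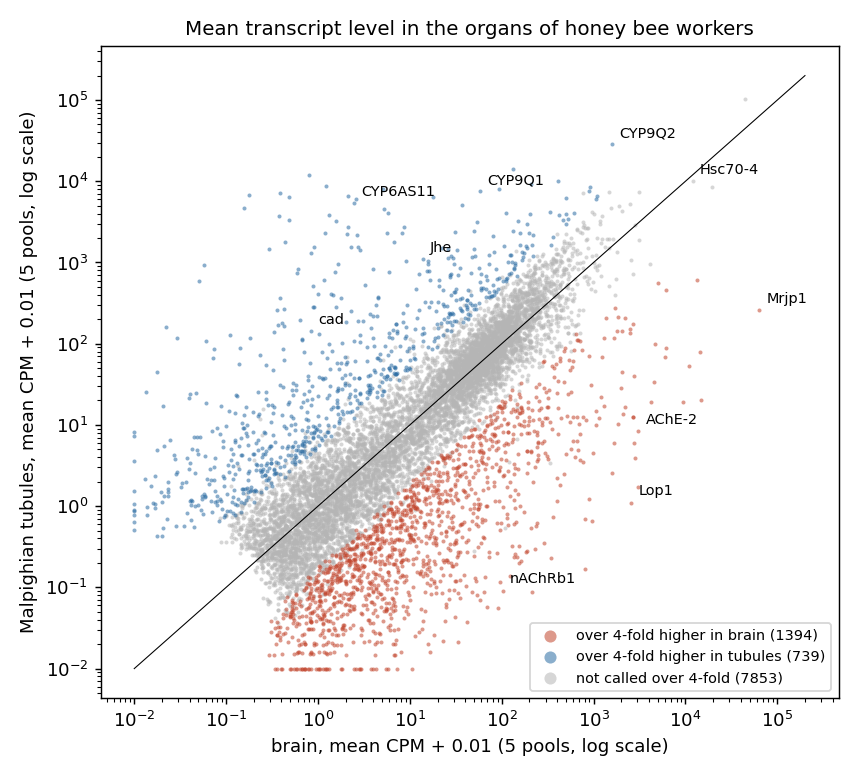
Mean level of each of the 9986 tested transcripts in brain (horizontal axis, CPM plus 0.01, log scale) against Malpighian tubules (vertical axis, same unit), each point 1 transcript averaged over 5 pools. The 1394 transcripts called over 4-fold higher in brain lie below the diagonal line of equal level and the 739 over 4-fold higher in tubules lie above it, with the genes of the text marked.

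Transcripts over 4-fold higher in brain were mostly of low level, with a median of 9.09 CPM in brain, while those over 4-fold higher in tubules had a median of 30 CPM in tubules. Among them 342 brain transcripts and 320 tubule transcripts reached 50 CPM in their own organ. Of these, 60 brain transcripts and 45 tubule transcripts stayed under 1 CPM in the other organ. Of 2006 transcripts with at least 50 CPM in both organs, 124 were called over 4-fold and 414 (20.6%) were not called at all. Over all tested transcripts, 2133 (21.4%) were called over 4-fold and 7500 (75.1%) were called in either direction. Long noncoding RNAs were called over 4-fold in somewhat larger shares than protein-coding transcripts, 17.3% against 13.4% higher in brain and 8.78% against 7.20% higher in tubules, a difference that was not tested.

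The P11 brain library had the lowest level of the 5 brains in 1012 of the 1394 transcripts (72.6%) over 4-fold higher in brain, against 3.73% to 11.3% for each of the other brains. It was the highest brain in 345 of the 739 transcripts over 4-fold higher in tubules. Without P11, 1537 transcripts were over 4-fold higher in brain and 838 higher in tubules, and 2068 of the 2133 first called kept their call and direction.

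Transcripts of acetylcholine signalling were mostly higher in brain. Of 10 tested transcripts of this list, 9 were called higher in brain, 6 of them over 4-fold, and none was called higher in tubules. The median logFC was 3.27, against 0.14 over all tested. AChE-2, an acetylcholinesterase that breaks the transmitter down, had 3355, 3046, 3091, 1436 and 4483 CPM in brain pools, against 8.71, 9.75, 5.81, 9.73 and 7.57 CPM in tubule pools. The lowest brain value, that of P11, was still far above every tubule value (logFC = 8.48, SE 0.41, adjusted p = 1.18e-05). Among the nicotinic receptor subunits nAChRb1 and nAChRa1 stood out. nAChRb1 had 147, 114, 111, 61.8 and 80.8 CPM in brain, against 0, 0.405, 0, 0 and 0 CPM in tubules, so that 4 of 5 tubule pools held no read of it (logFC = 10.57, SE 0.81, adjusted p = 5.88e-05). nAChRa1 had 544, 377, 453, 261 and 588 CPM in brain and 10.5, 5.89, 8.29, 19.4 and 17.5 CPM in tubules (logFC = 5.27, adjusted p = 5.39e-05). The groups did not overlap for either subunit, and P11 was the lowest brain for both. The 13 tubule reads of nAChRb1 all came from P7, so that without P7 no fold is given.

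Of the subunits with few counts, the tested transcript of nAChRa4 had 0.401 to 0.898 CPM in brain and 0 to 0.054 CPM in tubules. Its reads numbered 178 in brains against 3 in tubules, 2 of them from P24 (ratio 40.1, 95% exact interval 13.5 to 197 for counting error only). All 4 tested transcripts of nAChRa3 were called higher in brain without overlap, 2 of them over 4-fold. These were XM_016912066.2, with 1.62 to 2.9 CPM in brain and 0.062 to 0.562 CPM in tubules (logFC = 3.39, adjusted p = 0.000995), and XM_026440543.1, with 1.44 to 3.12 against 0.093 to 0.643 CPM (logFC = 3.14, adjusted p = 0.00103). The other pair stayed under 1 CPM in every pool (logFC 1.52 for XM_016912062.2 and 2.83 for XM_016912067.2). nAChRa9 and nAChRb2 were closer between the organs. nAChRa9 had 12.9, 13.2, 12.3, 17.5 and 10.7 CPM in brain, against 2.25, 3.36, 2.48, 31.2 and 5.33 CPM in tubules, and the P11 tubule pool lay above every brain (logFC = 1.43, adjusted p = 0.046). Its call was lost without the patriline block (logFC = 0.575, adjusted p = 0.47) and without P1, P7, P8 or P24, whereas without P11 it was kept (logFC = 1.9, adjusted p = 0.00126). nAChRb2 had 3.19, 6.23, 2.79, 5.24 and 4.97 CPM in brain and 0.94, 1.93, 0.937, 13.9 and 2.22 CPM in tubules, again with P11 the highest tubule pool, and did not pass the test (logFC = 1.0, adjusted p = 0.124). It was called higher in brain without P11 (logFC = 1.49, adjusted p = 0.000752) and with library size alone (logFC = 1.56, adjusted p = 0.0415). Transcripts of nAChRa2, nAChRa6, nAChRa7 and nAChRa8 had too few counts to be tested. Fragments that fit more than 1 transcript were not counted. For nAChRa1 to nAChRa4 and nAChRa6 to nAChRa8, which have more than 1 transcript, these counts therefore do not give the level of the subunit.

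Receptors and transporters of the other transmitters differed in the same direction. Of 22 tested transcripts, 17 were called higher in brain, 15 of them over 4-fold, 5 did not pass the test and none was called higher in tubules, with a median logFC of 5.23. Hiscl1, a chloride channel opened by histamine, the transmitter of insect photoreceptors, had 129, 108, 109, 124 and 171 CPM in brain, against 0.247, 0.156, 0.06, 0.758 and 0.351 CPM in tubules. The level in P11 lay within the range of the other brains (logFC = 8.76, SE 0.44, adjusted p = 1.35e-05). The octopamine receptor Oa1 had 186, 200.2, 214, 145 and 239 CPM in brain and 5.24, 5.39, 6.96, 12.3 and 9.89 CPM in tubules (logFC = 4.69, adjusted p = 2.64e-05). The dopamine receptor Dop1 and the tyramine receptor TyrR, which like Oa1 are G protein-coupled receptors for biogenic amines, had 65.9 to 144 and 53.4 to 133 CPM in brain, against 1.56 to 3.86 and 1.46 to 3.39 CPM in tubules. P11 was the lowest brain for both and the groups did not overlap (logFC 5.43 and 5.46).

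Lower transcripts of the list showed the same contrast. LCCH3, a subunit of GABA-gated chloride channels, had 7.18 to 15.4 CPM in brain and 0 to 0.135 CPM in tubules (logFC = 8.21, adjusted p = 4.12e-05). A transcript of Nmdar1, a subunit of the NMDA type of glutamate receptor, had 13.2 to 16.6 CPM in brain and 0 to 0.391 CPM in tubules (logFC = 7.03, adjusted p = 0.000214), and the dopamine receptor DopR2 had 2.6 to 7.44 against 0 to 0.151 CPM (logFC = 7.13, adjusted p = 0.000195). Eaat-2, a transporter that clears glutamate, had 7.39, 6.71, 6.43, 4.2 and 10.2 CPM in brain pools. Its reads numbered 1951 in the 5 brains and 2 in the 5 tubules, a ratio of 660 once scaled, with a 95% exact interval of 182 to 5450 that covers counting error only. Both tubule reads came from P7. The logFC was 9.13 for LCCH3 without P24, 7.84 for Nmdar1 without P11 and 8.45 for DopR2 without P8.

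Among neuropeptides, 4 of 7 tested transcripts were called higher in brain, each over 4-fold, and the other 3 did not pass the test. Over all tested transcripts 40.8% were called higher in brain, and 14.0% over 4-fold. Tk, the tachykinin precursor, had 6.67, 7.9, 6.76, 4.15 and 7.22 CPM in brain, against 0.049, 0, 0.151, 0 and 0.054 CPM in tubules (logFC = 7.04, adjusted p = 8.67e-05). Crz, corazonin, had 3.44 to 7.35 CPM in brain and 0 to 0.122 CPM in tubules (logFC = 6.82, adjusted p = 0.000108), and Pban, the pheromone biosynthesis activating peptide, 6.1 to 15.7 against 0.498 to 1.3 CPM (logFC = 3.9, adjusted p = 0.000271). Eth, ecdysis triggering hormone, pointed the other way at low level, with 0.238, 0.533, 0.193, 0.278 and 0.311 CPM in brain and 0.173, 1.62, 2.69, 0.098 and 0.946 CPM in tubules, where the groups overlapped (logFC = -1.22, adjusted p = 0.182). Without P11 it passed the test as higher in tubules (logFC = -1.78, adjusted p = 0.0464). P11 was also the lowest brain and the highest tubule pool for Crz, whose logFC was 7.84 without it, and that of Tk was 7.83 without P8.

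All 22 tested transcripts of the synapse, excitability and neuronal RNA-binding list were called higher in brain, 15 over 4-fold, with a median logFC of 3.63. The list also holds Cac, Mblk-1 and the long noncoding RNAs Ancr-1, Ks-1 and Kakusei. Cac and these RNAs are counted again in lists below, so the counts of these lists overlap. Nrx-1, the presynaptic adhesion protein neurexin, had 186, 148, 161, 87.3 and 164 CPM in brain, against 1.39, 2.71, 3.96, 2.44 and 3.92 CPM in tubules (logFC = 5.72, SE 0.32, adjusted p = 2.04e-05). NLG-3, a neuroligin and so a postsynaptic partner of neurexins, had 65.8, 53.8, 70.8, 38.2 and 68 CPM in brain and 2.28, 1.56, 3.12, 5.99 and 5.33 CPM in tubules (logFC = 4.15, adjusted p = 0.000155). Both had P11 as the lowest brain and neither overlapped between the organs. brp, the active zone protein known in Drosophila as Bruchpilot, had 4.22 to 12.8 CPM in brain and 0 to 0.318 CPM in tubules (logFC = 6.28, adjusted p = 0.000465). Ac3, an adenylate cyclase, had 22.1 to 38.4 against 0.025 to 0.27 CPM (logFC = 8.2, adjusted p = 2.1e-05). Dscam, a cell adhesion molecule of axon wiring that also acts in insect immunity, was closer between the organs at 17.1 to 39.2 against 2.52 to 4.7 CPM (logFC = 2.98, adjusted p = 1.18e-05). The logFC was 7.24 for brp without P11 and 8.83 for Ac3 without P24.

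The 8 tested transcripts of calcium and sodium channel genes were all called higher in brain, 6 over 4-fold. Cava2d3, an auxiliary alpha2delta subunit of voltage-gated calcium channels, had 288, 241, 258, 165 and 250.1 CPM in brain, against 5.05, 5.3, 4.99, 4.64 and 7.08 CPM in tubules (logFC = 5.46, SE 0.15, adjusted p = 2.41e-06). Its brain and tubule values were tight apart from the lower P11 brain. The calcium channel gene Cac had 1 transcript with 31.5, 22.3, 24.8, 12.5 and 24.3 CPM in brain, for which 6523 reads in brains stood against 2 in tubules (ratio 2210, 95% exact interval 611 to 18200 for counting error only), both of them from P8. A transcript of Teh1, named for an auxiliary protein of sodium channels in Drosophila, had 11.3 to 22.9 CPM in brain and 0 to 0.216 CPM in tubules (logFC = 7.16, adjusted p = 4.89e-05). Para, the sodium channel itself, had too few counts to be tested once fragments that fit more than 1 transcript were left out.

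The nitric oxide and cyclic nucleotide genes were split between the organs. Of 18 tested transcripts, 12 were called higher in brain and 6 higher in tubules, beside 40.8% and 34.3% of all tested. NOS, nitric oxide synthase, had 357, 324, 348, 237 and 309 CPM in brain, against 3.81, 2.37, 2.0, 4.62 and 6.0 CPM in tubules (logFC = 6.47, SE 0.36, adjusted p = 1.9e-05). sGC-alpha1, a subunit of the guanylyl cyclase that nitric oxide activates, had 273, 241, 247, 153 and 234 CPM in brain and 0.049, 0.53, 0.272, 0.538 and 0.027 CPM in tubules (logFC = 9.73, adjusted p = 4.12e-05). The groups stood far apart for both genes. Of the protein kinases, Pkc, protein kinase C, was higher in brain at 21.2 to 37.1 against 0.062 to 0.904 CPM (logFC = 6.66, adjusted p = 0.000158), and Cdk5, a cyclin-dependent kinase of neurons, differed little at 133 to 149.6 against 73.1 to 99.4 CPM (logFC = 0.76, adjusted p = 0.000406). All 4 tested transcripts of For, the cGMP-dependent protein kinase known as foraging, were instead higher in tubules. The most abundant had 5.38, 6.38, 4.1, 4.12 and 5.23 CPM in brain and 10.2, 17.4, 14, 11.7 and 12.7 CPM in tubules (logFC = -1.38, adjusted p = 0.000248), and another 0.294 to 0.683 against 3.3 to 9.83 CPM (logFC = -4.0, adjusted p = 0.000206). The logFC of Pkc was 7.31 without P11. The other 2 tubule-higher transcripts of this list were those of Ip3k, an inositol trisphosphate kinase.

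**Figure D2:**
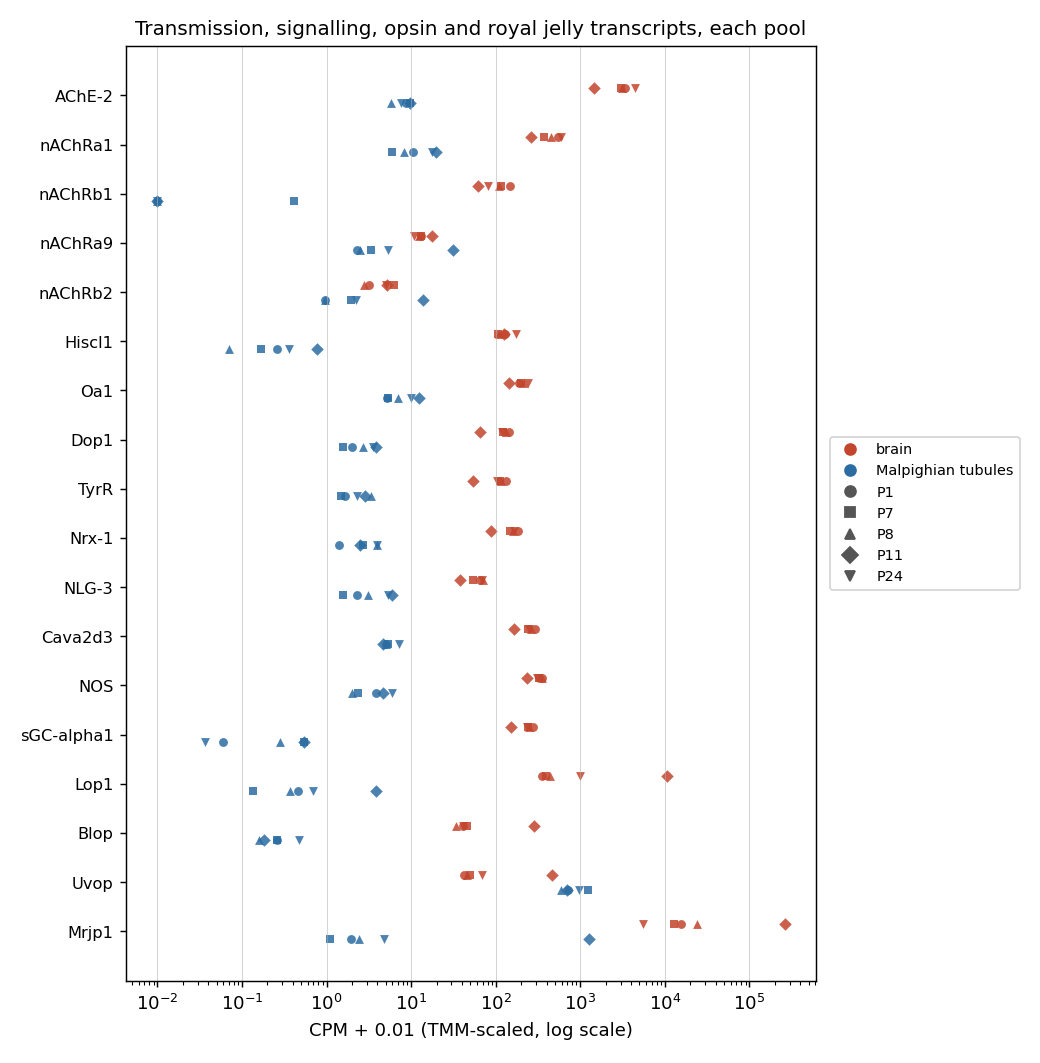
Level of 18 transcripts in each of the 10 pools (horizontal axis, CPM plus 0.01, TMM-scaled, log scale), brain in red above Malpighian tubules in blue, with 1 marker shape per patriline. Brain pools lie right of tubule pools without overlap except for nAChRa9 and nAChRb2, where the P11 tubule pool lies among or above the brains, and for Uvop, where tubules lie higher; P11 is far right of the other brains for Lop1, Blop, Uvop and Mrjp1.

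The long noncoding RNAs described in bee brain were all called higher in brain, though 1 of them was abundant in both organs. Ancr-1 had 16325, 17041, 18964, 21972 and 23244 CPM in brain, against 5808, 7072, 9695, 9077 and 10540.1 CPM in tubules (logFC = 1.23, adjusted p = 0.00184), and was among the 8 most abundant transcripts of brain. Ks-1, known from the small-type Kenyon cells of the mushroom bodies, had 14.5, 10.02, 11.1, 3.67 and 15.4 CPM in brain and 0.223, 0.156, 0.393, 0.269 and 0.811 CPM in tubules (logFC = 4.89, adjusted p = 8.04e-05). Kakusei, an RNA induced by neural activity, had 1.12 to 1.97 against 0.031 to 0.272 CPM (logFC = 3.67, adjusted p = 0.000768). Mblk-1, a transcription factor of the large-type Kenyon cells, was present in both organs at 36.8 to 61.3 against 14.3 to 40.3 CPM (logFC = 1.19, adjusted p = 0.00235).

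The opsins, the light-sensing proteins of photoreceptors, differed in direction. The green-sensitive Lop1 had 357, 398, 444, 10640.4 and 989.8 CPM in brain, against 0.445, 0.125, 0.363, 3.86 and 0.676 CPM in tubules (logFC = 10.67, SE 0.4, adjusted p = 5.48e-06), and the blue-sensitive Blop 40.6, 46.2, 33.6, 284 and 40.7 CPM in brain and 0.247, 0.249, 0.151, 0.171 and 0.46 CPM in tubules (logFC = 7.94, adjusted p = 6.59e-05). The P11 brain was many-fold above the other brains for both, and the other 4 brains still lay above all tubules. Lop2 had 7.39 to 107 against 0.062 to 0.423 CPM (logFC = 6.47, adjusted p = 0.000464). Uvop, the ultraviolet opsin, was higher in tubules, with 42.1, 49.2, 46.2, 467 and 69.7 CPM in brain and 722, 1221, 589.5, 694 and 953 CPM in tubules (logFC = -3.48, SE 0.65, adjusted p = 0.00283). The groups did not overlap, and the highest brain was again P11. Without P11 the logFC was 10.32 for Lop1, 7.14 for Blop and -4.09 for Uvop, each still called. That of Lop2 was 5.67 without P11 and 7.18 without P8. The light-sensing list holds 6 tested transcripts, of which 5 were called higher in brain, and Tk entered it through a synonym.

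Odorant and gustatory receptors, which detect chemicals in the sense organs, were low in both organs. Of 24 tested, 16 were called higher in brain, 9 over 4-fold, and none higher in tubules. Or35 had 20.01 to 39.1 CPM in brain and 3.03 to 7.41 CPM in tubules (logFC = 2.54, adjusted p = 8.07e-06), and Or19 4.75 to 9.98 against 0.151 to 0.371 CPM (logFC = 4.74, adjusted p = 3.13e-05). Odorant-binding and chemosensory proteins are small carriers of hydrophobic ligands. Of their 18 tested transcripts, 10 were called higher in brain and 1 higher in tubules, beside 40.8% and 34.3% of all tested. Obp4 had 66.8, 124, 98.6, 111 and 79.9 CPM in brain and 0.866, 2.34, 4.38, 5.57 and 2.0 CPM in tubules (logFC = 5.18, adjusted p = 3.48e-05). The exception was Obp14, with 0.995, 5.25, 1.79, 43.9 and 1.5 CPM in brain and 16.5, 23, 102, 258 and 49.4 CPM in tubules, where the groups overlapped through the P11 brain (logFC = -3.88, adjusted p = 0.00171).

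The hypopharyngeal gland and royal jelly list took 1.02% to 29.3% of the counts of brain pools, against 0.101% to 1.65% in tubule pools. Of its 11 tested transcripts, 5 were called higher in brain and 2 higher in tubules, beside 40.8% and 34.3% of all tested. The other 4 did not pass the test. Whether this RNA came from gland tissue was not tested. Mrjp1, major royal jelly protein 1, had 15604, 12893, 23698, 260183 and 5449.8 CPM in brain and 1.95, 1.09, 2.39, 1282 and 4.76 CPM in tubules (logFC = 11.71, SE 1.43, adjusted p = 0.000415), and P11 was highest in both organs. Without P11 the logFC of Mrjp1 was 12.46. Mrjp3 had the same order of brain pools, with 4674, 3550.1, 5756, 57505 and 823 CPM in brain and 3.78, 6.54, 2.48, 372 and 4.89 CPM in tubules (logFC = 9.01, adjusted p = 0.000158). Mrjp5 had 223 to 6038 CPM in brain and 0.125 to 28.3 CPM in tubules (logFC = 9.55, adjusted p = 0.000115). Mrjp8 was the exception, with 19.97, 25.2, 21.4, 29.6 and 32.1 CPM in brain and 157, 166, 167, 202 and 228 CPM in tubules, without overlap (logFC = -2.85, adjusted p = 1.76e-06). The alpha-glucosidase genes that the list also holds differed in direction. Hbg3 had 889, 568, 1535, 10222 and 655 CPM in brain and 4.18, 9.22, 53.9, 118 and 12.7 CPM in tubules (logFC = 6.11, adjusted p = 6.6e-05), whereas Hbg2 had 1.71, 3.34, 2.5, 19.3 and 1.86 CPM in brain and 833, 491, 12982, 3996 and 1975 CPM in tubules (logFC = -9.12, adjusted p = 0.000266). AGLU2 did not pass the test at 257 to 523 against 269.6 to 6172 CPM (logFC = -1.92, adjusted p = 0.0863), although DESeq2, the fit without the patriline block and the fit without P7 called it higher in tubules. Hbg2 and AGLU2 were highest in the P8 tubule pool, the one with the largest gap for ventriculus transcripts. In the ventriculus itself they had 53136 and 35109 CPM without TMM factors. Without P8 the logFC of Hbg2 was -8.44.

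The largest brain-over-tubule differences among abundant transcripts included genes that carry only an identifier. LOC725064 had 1045, 815, 842, 533 and 825 CPM in brain, against 0.025, 0.312, 0.272, 0.147 and 0.027 CPM in tubules (logFC = 12.4, SE 0.61, adjusted p = 1.24e-05). LOC409077, among the 8 most abundant transcripts of brain, had 15859, 16641, 16586, 10266 and 14574 CPM in brain and 0.965, 87.9, 2.09, 7.48 and 1.78 CPM in tubules, with the P7 tubule pool above the rest (logFC = 11.78, adjusted p = 0.000378). LOC408935 had 2112 to 3579.9 against 0.541 to 3.21 CPM (logFC = 11.02, adjusted p = 1.27e-05). LOC100576569 and LOC410866 were the most even of them, at 705 to 1337 against 0.587 to 0.748 CPM and 216 to 428 against 0.147 to 0.324 CPM (logFC 10.49 and 10.57). LOC406081 was, like Mrjp1, highest in P11 in both organs, with 1302, 970.2, 2897, 14608 and 1083 CPM in brain and 1.14, 0.031, 0.151, 94.5 and 0.487 CPM in tubules (logFC = 10.92, adjusted p = 0.000402). LOC725960, another of those 8, was also present in tubules, at 7488 to 16399.7 against 419 to 895 CPM (logFC = 4.5, adjusted p = 0.000107). The logFC of LOC409077 was 12.62 without P7 and 11.13 without P1, and that of LOC406081 11.72 without P11 and 10.23 without P8.

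On the tubule side, the listed transcripts of the metabolism of foreign compounds were mostly higher than in brain. The list was matched by gene symbol and reached 10 tested genes, so it need not hold every gene of this function. Of 13 tested transcripts of P450, glutathione transferase and related genes, 10 were called higher in tubules, 7 over 4-fold, 1 was called higher in brain and 2 did not pass the test, with a median logFC of -2.8. These transcripts took 3.1% to 5.28% of the counts of tubule pools, against 0.269% to 0.502% in brain pools. CYP9Q2, a P450 known to metabolise neonicotinoids in bees, had 1599, 1652, 1719, 1223 and 1773 CPM in brain and 33947, 31802, 23931, 26552 and 25578 CPM in tubules (logFC = -4.15, SE 0.26, adjusted p = 2.8e-05). It was among the 3 most abundant features of every tubule pool and still a sizeable transcript in brain. CYP9Q1 had 28.1, 57.5, 39.5, 115 and 52.2 CPM in brain and 9576, 8299, 5813, 5427 and 8339.9 CPM in tubules (logFC = -7.15, SE 0.5, adjusted p = 4.21e-05). CYP9Q3 had 732, 816, 714, 836 and 754 CPM in brain and 6582, 16188, 2849, 8184 and 1700.3 CPM in tubules (logFC = -2.8, SE 0.5, adjusted p = 0.0023). Its brain values were even while the tubule pools ranged widely, and the call at more than 4-fold was not reached (adjusted p = 0.0979).

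The P450s of the CYP6AS group differed among themselves. CYP6AS11 had 0.282, 0.092, 0.501, 11.2 and 0.293 CPM in brain, where P11 stood apart, against 5993, 6539.7, 4508, 4993 and 4887 CPM in tubules (logFC = -13.32, SE 1.41, adjusted p = 0.00022). Cyp6as5 was low, with 0 to 0.126 CPM in brain and 5.62 to 8.56 CPM in tubules (logFC = -7.61, adjusted p = 5.79e-05). CYP6AS13 was abundant in both organs, with 997, 1382, 1183, 918 and 936 CPM in brain and 1683, 2294, 1477, 2121 and 2434 CPM in tubules (logFC = -0.88, adjusted p = 0.00405), and its call was lost with library size alone (logFC = -0.38, adjusted p = 0.205). A probable cytochrome P450 6a14 had 59.9, 18.5, 90.7, 20.00 and 32.5 CPM in tubules, with 8038 reads there against 2 reads in all brains (ratio 5940, 95% exact interval 1640 to 49100 for counting error only), both of them from P8. CYP15A1, which makes juvenile hormone in the corpora allata, glands attached to the brain, was the one transcript of the list called higher in brain, with 41.8, 19.7, 33.1, 18.2 and 12.5 CPM in brain and 0.297, 0.062, 0.302, 0.953 and 0.838 CPM in tubules (logFC = 5.73, adjusted p = 0.000458). Without P11 the logFC was -14.27 for CYP6AS11 and -8.46 for Cyp6as5, and without P7 that of CYP6AS11 was -12.73.

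Glutathione transferases, which conjugate foreign compounds, were likewise higher in tubules for most transcripts. A GstD1 transcript (XM_006563331.3) had 0.015, 0.037, 0.058, 0.177 and 0.035 CPM in brain, against 58.9, 102, 61.6, 109 and 102 CPM in tubules (logFC = -10.51, SE 0.36, adjusted p = 4.29e-06). A further GstD1 transcript (XM_026445267.1) had 0.018 to 0.077 against 16.9 to 33.6 CPM (logFC = -9.23, adjusted p = 7.17e-06), while another of the same gene did not pass the test. GstS1 had 0.455 to 0.79 against 3.5 to 4.92 CPM (logFC = -2.63, adjusted p = 3.29e-05). The logFC of GstD1 XM_006563331.3 was -11.11 without P11.

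The transport list held few genes with a telling symbol, and 4 of its 7 tested transcripts were called higher in tubules, 2 of them with library size alone. Vha16, the membrane subunit of the proton pump that drives tubule secretion, had 871, 902, 886, 895 and 859.7 CPM in brain, against 7621, 8643, 7512, 6045 and 8268 CPM in tubules (logFC = -3.1, SE 0.16, adjusted p = 1.38e-05). The spread within each organ was small, so that every tubule pool held several times the level of every brain. Tret1, the carrier of trehalose, the blood sugar of insects, was split by transcript. XM_006570577.3 had 134, 204, 155, 208 and 177 CPM in brain and 364, 414, 401, 406 and 434 CPM in tubules (logFC = -1.22, adjusted p = 6.86e-05), whereas XM_006570580.3 had 47.1, 91.9, 50.8, 71.2 and 42.4 CPM in brain and 6.5, 9.16, 13.1, 10.6 and 13.1 CPM in tubules (logFC = 2.52, adjusted p = 0.000202). InR-2, an insulin-like receptor gene of the list that is no transporter, was low in both organs at 1.57 to 2.04 against 2.24 to 4.69 CPM for 1 transcript (logFC = -0.84, adjusted p = 0.00511), a call lost with library size alone (logFC = -0.34, adjusted p = 0.274).

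Of 8 tested transcripts of antioxidant enzymes, 4 were called higher in tubules and 1 higher in brain, beside 34.3% and 40.8% of all tested. With library size alone 3 were called in each direction, and the median logFC was 0.19, against -0.31 with TMM factors. Tpx-4, a thioredoxin peroxidase, had 894, 1025, 1046, 1429 and 866 CPM in brain and 6098, 6671, 5632, 7144 and 4726 CPM in tubules (logFC = -2.53, SE 0.14, adjusted p = 2.08e-05). Sod1, cytosolic superoxide dismutase, had 511, 639, 534, 556 and 592 CPM in brain and 1928, 2317, 1738, 2037 and 1966 CPM in tubules (logFC = -1.82, adjusted p = 1.5e-05). Sod2, the mitochondrial form, was closer at 149.9 to 215 against 200.4 to 314 CPM (logFC = -0.44, adjusted p = 0.00977), and its direction turned with library size alone (logFC = 0.06, adjusted p = 0.771). Cat, catalase, had 3.46 to 5.42 CPM in brain and 2.24 to 3.23 CPM in tubules for the transcript tested (logFC = 0.5, adjusted p = 0.0405), a call lost under RLE factors (logFC = 0.44, adjusted p = 0.0507) and without P1, P7, P8 or P24. The Cat call was also lost with P21 added, without the low-count filter and with royal jelly transcripts removed (adjusted p between 0.0616 and 0.166).

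Juvenile hormone genes stood on opposite sides. The enzymes that make the hormone were higher in brain pools, where jhamt, the juvenile hormone acid methyltransferase, had 66, 22.7, 48.9, 27.5 and 12.4 CPM, against 3.34, 0.841, 4.78, 1.32 and 1.41 CPM in tubules (logFC = 3.97, adjusted p = 4.68e-05), beside the CYP15A1 values above. Jhe, the esterase that degrades the hormone, had 10.6, 12, 10.8, 24.1 and 11.5 CPM in brain and 768, 1803, 975.4, 810.3 and 1122 CPM in tubules (logFC = -6.33, SE 0.37, adjusted p = 2.14e-05). Clock and hormone-response transcription factors had 16 tested transcripts. Of these, 9 were called higher in brain and 4 higher in tubules, beside 40.8% and 34.3% of all tested. Kr-h1, which responds to juvenile hormone, was higher in tubules at 43.2 to 64.7 against 72.2 to 109 CPM for its main transcript (logFC = -0.81, adjusted p = 4.85e-05), a call lost with library size alone (logFC = -0.31, adjusted p = 0.0946). The ecdysone-response factors E74 and Br-c were higher in brain, E74 at 19.1 to 33.6 against 0.654 to 2.44 CPM (logFC = 4.2, adjusted p = 0.0001) and a Br-c transcript at 4.22 to 11.7 against 0 to 0.44 CPM (logFC = 5.55, adjusted p = 0.00126). Without P11 the logFC of this Br-c transcript was 6.17. The ecdysone receptor Ecr differed little, at 24.1 to 36 against 14.8 to 26.7 CPM (logFC = 0.6, adjusted p = 0.00853). E75 had minor transcripts of opposite direction, with 2.69, 2.13, 2.95, 0.911 and 2.02 CPM in brain and 0.173, 0.872, 0.393, 0.44 and 0.216 CPM in tubules for XM_006564318.3 (logFC = 2.41, adjusted p = 0.00448) and 0.846, 0.459, 0.712, 0.936 and 0.518 CPM in brain and 6.48, 2.83, 5.32, 6.72 and 2.27 CPM in tubules for XM_006564320.3 (logFC = -2.69, adjusted p = 5.11e-05).

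Among developmental transcription factors, cad and Kr marked the organs most clearly. cad, the homeobox gene caudal that specifies the hind part of the insect gut, had 0.95, 0.9, 0.674, 0.961 and 0.673 CPM in brain, against 98.7, 149, 168, 121 and 170.1 CPM in tubules (logFC = -7.38, SE 0.26, adjusted p = 4.61e-06). Kr, the zinc finger gene Kruppel, had 85, 61.8, 71.5, 23.2 and 74.8 CPM in brain and 1.51, 0.436, 1.36, 2.44 and 2.16 CPM in tubules (logFC = 5.34, adjusted p = 0.000229). Neither overlapped between organs. Of 12 tested transcripts of this list, 5 were called higher in brain and 2 higher in tubules, beside 40.8% and 34.3% of all tested. The other 5 did not pass the test. Of the SOX factors, Sox-2 had 43.5, 35.4, 36, 27.3 and 51.9 CPM in brain and 56.4, 13.5, 73.9, 7.06 and 6.97 CPM in tubules, so that P1 and P8 tubules lay above all brains and the other tubules below them (logFC = 0.97, adjusted p = 0.208). With library size alone Sox-2 was called higher in brain (logFC = 1.46, adjusted p = 0.0345). Sox-21-B had 1.69 to 4.82 against 0.779 to 4.02 CPM, a call at the threshold (logFC = 0.99, adjusted p = 0.0404) that was lost without the patriline block (logFC = 0.83, adjusted p = 0.144) and without P7, P11 or P24. This call was also lost with P21 added, without the low-count filter and with royal jelly transcripts removed (adjusted p between 0.0521 and 0.148).

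**Figure D3:**
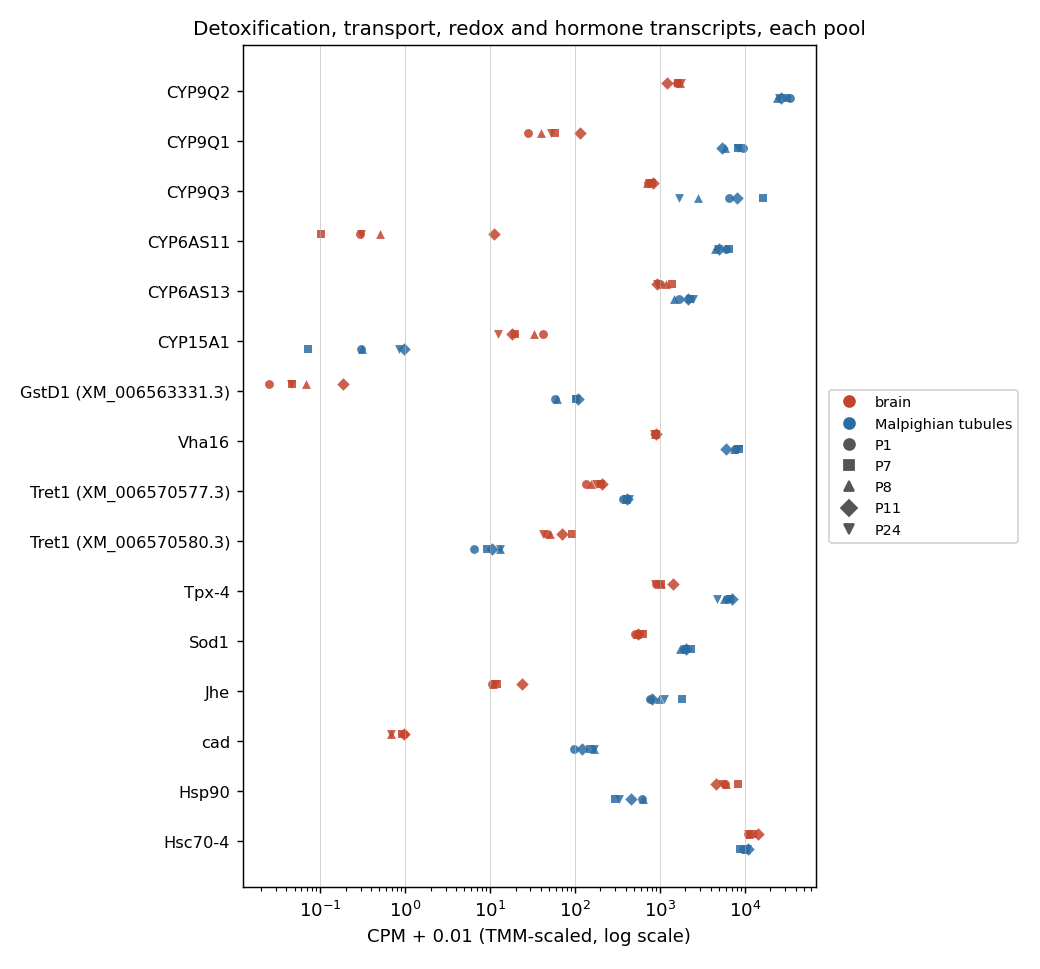
Level of 16 transcripts in each of the 10 pools (horizontal axis, CPM plus 0.01, TMM-scaled, log scale), brain in red above Malpighian tubules in blue, with 1 marker shape per patriline. Tubule pools lie right of brain pools for the CYP9Q and CYP6AS genes, GstD1, the first Tret1 transcript, Vha16, Tpx-4, Sod1, Jhe and cad. They lie left of brain pools for CYP15A1, Hsp90 and the second Tret1 transcript, while for Hsc70-4 the pools of the organs overlap.

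The largest tubule-over-brain differences among abundant transcripts again included genes that carry only an identifier. LOC100579019 had 0.104, 0.147, 0.173, 0.304 and 0.104 CPM in brain, against 6454, 6712, 11675, 3104 and 5727 CPM in tubules (logFC = -15.27, SE 0.61, adjusted p = 6.88e-06). LOC100576444 had 0.015, 0.11, 0.116, 0.405 and 0.086 CPM in brain and 3636, 6615, 2954, 3062 and 7313 CPM in tubules (logFC = -15.13, adjusted p = 1.78e-05). LOC102655631 and LOC726481 were even over the tubule pools at 6288 to 8271 and 5771 to 7170.5 CPM, with 0.096 to 1.39 and 0.104 to 1.8 CPM in brain, the highest brain being P11 for both (logFC -14.93 and -14.6). LOC726672, among the 8 most abundant transcripts of the tubules, had 90.6 to 184 CPM in brain and 10667 to 17839 CPM in tubules (logFC = -6.77, adjusted p = 5.62e-06). LOC408871 and LOC726965, also of those 8, had 338 to 448 and 0.459 to 3.09 CPM in brain, against 7587 to 13533 and 6703 to 10543 CPM in tubules (logFC -4.62 and -13.11). Without P11 the logFC was -15.97 for LOC100576444, -15.86 for LOC102655631 and -15.52 for LOC726481.

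Levels in the ventriculus of the same 5 patrilines show which of these transcripts the midgut also holds, here in CPM without TMM factors. Of the 739 transcripts over 4-fold higher in tubules, 233 (31.5%) had in the ventriculus at least 0.5 times their tubule level and 172 lay above it, while of the 1394 over 4-fold higher in brain, 2 had at least 0.5 times their brain level and 0 lay above it. The most extreme tubule transcripts fell on both sides. LOC102655631 averaged 6002 in tubules and 133 in ventriculus, and LOC726965 7378 and 139.7. By contrast LOC100579019 averaged 5596 in tubules and 19931 in ventriculus, and LOC551524 771 and 8506. CYP9Q2 averaged 23829 in tubules and 1389 in ventriculus, whereas CYP9Q1 averaged 6305 and 7749.8.

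Digestive enzymes belonged to the second kind, and their tubule levels ran with the pool. An aminopeptidase N (LOC551180), which trims peptides at the midgut surface, had 1.22, 1.47, 1.14, 1.21 and 1.52 CPM in brain, against 6623, 1978, 8987, 994 and 874 CPM in tubules (logFC = -10.9, SE 0.89, adjusted p = 7.34e-05), and averaged 17155 CPM in ventriculus. P1 and P8 were the highest tubule pools. The other aminopeptidase N (LOC551224), serine protease 53, trypsin and the putative serine protease K12H4.7 had their highest tubule levels in the same pair of pools, and logFC of -8.01, -9.85, -9.68 and -5.86. caspase-3, a protease of programmed cell death, had 1.13, 0.496, 1.0, 1.09 and 0.673 CPM in brain and 800.5, 317, 1153, 168 and 148 CPM in tubules (logFC = -8.83, adjusted p = 3.4e-05), and averaged 2661 CPM in ventriculus. LOC724199 had 0.551 to 0.982 CPM in brain and 4707, 3969, 34172, 11235 and 4971 CPM in tubules (logFC = -13.34, adjusted p = 1.05e-05), highest in P8, and 159000 CPM in ventriculus. The part of midgut RNA in these tubule levels was not tested. Without P8 the logFC was -10.37 for LOC551180, -8.46 for caspase-3 and -12.91 for LOC724199, each still called. The logFC of LOC551224 was -7.28 without P8, -7.3 without P1 and -8.63 without P24, and that of trypsin -10.31 without P24. Over all transcripts without P8, 1226 transcripts were over 4-fold higher in brain and 657 higher in tubules.

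**Figure D4:**
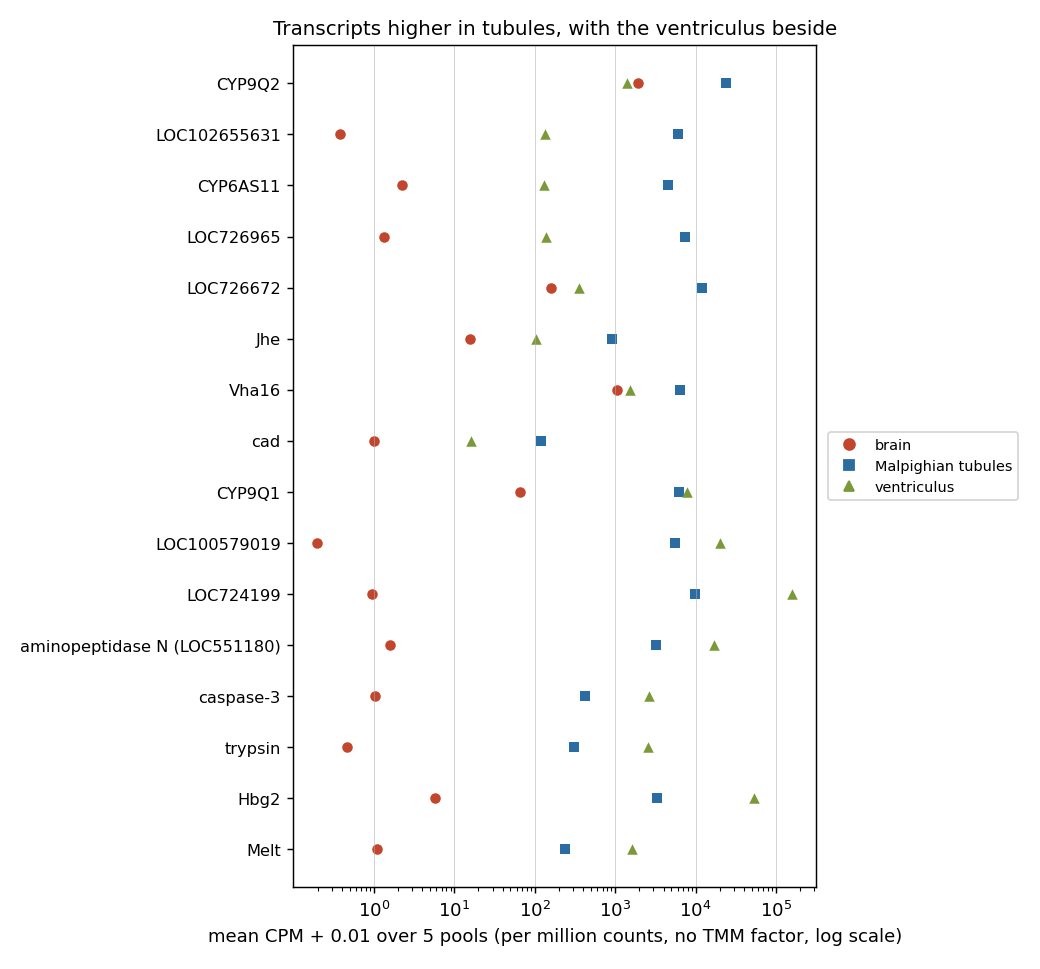
Mean CPM over 5 pools (horizontal axis, plus 0.01, log scale, no TMM factor) of 16 transcripts higher in tubules, with brain as red circles, Malpighian tubules as blue squares and the ventriculus as green triangles. For CYP9Q2, CYP6AS11, Jhe, Vha16 and cad the ventriculus lies well below the tubules. For LOC724199, aminopeptidase N, caspase-3, trypsin and Hbg2 it lies above them. Melt also has a higher mean in the ventriculus (1604 CPM), but with an SD of 3436.5 CPM over the 5 pools.

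Other transcripts named in the study had values on both sides. A fatty-acid amide hydrolase 2-B had 2.78, 1.75, 3.43, 10.3 and 1.92 CPM in brain and 56.8, 107, 43.3, 155 and 106 CPM in tubules (logFC = -4.7, adjusted p = 0.000133). The long noncoding RNA XR_003306097.1 had 0.349 to 0.949 against 4.8 to 39.4 CPM (logFC = -4.39, adjusted p = 0.000653). The sodium/potassium/calcium exchanger 3 had 28.7 to 32.5 CPM in brain and 37.4 to 159 CPM in tubules (logFC = -1.15, adjusted p = 0.0216), a call lost without P1 (adjusted p = 0.0733) and with library size alone (adjusted p = 0.0627). The endothelin-converting enzyme homolog was higher in brain at 30.5 to 54.8 against 0.685 to 6.43 CPM (logFC = 4.43, adjusted p = 0.000551), as was the disintegrin and metalloproteinase 10-like at 9.18 to 14.5 against 0.498 to 1.54 CPM (logFC = 3.78, adjusted p = 0.000132).

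Genes of the fat body and haemolymph, tissues that can cling to a dissected organ, were split. Of 11 tested transcripts, 4 were called higher in brain and 6 higher in tubules, beside 40.8% and 34.3% of all tested. The list took 0.622% to 0.793% of the counts of brain pools and 0.0486% to 0.408% of those of tubule pools, and most of it in brain pools came from the iron carrier transferrin, Tsf1, with 4428, 5109.5, 4855, 5825 and 4947 CPM in brain and 147, 591, 684, 1027 and 340.5 CPM in tubules (logFC = 3.43, SE 0.4, adjusted p = 0.000333). Vg, the yolk precursor vitellogenin, had 12.5, 28.1, 18.9, 416 and 10.6 CPM in brain and 69.98, 47, 804, 1139 and 377 CPM in tubules, so that the groups overlapped (logFC = -3.0, adjusted p = 0.0205), a call lost without the patriline block (logFC = -2.33, adjusted p = 0.116) and without P1 or P24. Its logFC was -2.37 without P24, -2.33 without P8 and -3.64 without P7. The Vg call was also lost with P21 added (adjusted p = 0.0711). Hex70a, a storage protein, had 14.5 to 387 against 139 to 1653 CPM (logFC = -3.51, adjusted p = 0.00233), and Def1, an antimicrobial defensin, 87.4 to 2209 against 4.65 to 55.3 CPM (logFC = 3.7, adjusted p = 0.00304). The P11 brain was the highest of the brains for all 4 of these genes.

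Of 6 tested muscle transcripts, 5 were called higher in tubules and none higher in brain, beside 34.3% and 40.8% of all tested. TpnI, troponin I, had 0.297, 0.276, 0.712, 3.57 and 0.38 CPM in brain and 4.82, 3.3, 5.59, 20.5 and 7.33 CPM in tubules, with P11 the highest pool of both organs and an overlap between them (logFC = -3.43, adjusted p = 0.00012). The whole list took 0.00381% to 0.0128% of the counts of brain pools and 0.00933% to 0.0486% of those of tubule pools. Cuticle proteins are the building material of the exoskeleton and of the hindgut and tracheal lining. Of their 24 tested transcripts, 12 were called higher in brain and 4 higher in tubules, beside 40.8% and 34.3% of all tested. CPR3 had 18 to 25.3 against 0.405 to 4.6 CPM (logFC = 3.28, adjusted p = 0.00115) and Cpap3-d 16 to 71.3 against 44.2 to 414 CPM (logFC = -2.13, adjusted p = 0.000263). Melt, the venom peptide melittin, had 1.13, 0.717, 0.847, 0.658 and 1.14 CPM in brain and 43.6, 615, 16.2, 744 and 6.92 CPM in tubules (logFC = -6.24, adjusted p = 0.00839), and its logFC ranged from -7.32 without P24 to -5.2 without P7, with -7.03 without P8 and -5.34 without P11.

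Among chaperones and ribosomal proteins Hsp90 differed most, while several of the others depended on the scaling. Hsp90, the stress and folding chaperone, had 5868, 8352, 6082, 4605 and 5438 CPM in brain, against 610.2, 296, 631, 455 and 328 CPM in tubules (logFC = 3.74, SE 0.3, adjusted p = 7.15e-05). The constitutive chaperone Hsc70-4 was among the 8 most abundant transcripts of both organs, with 10786, 12579.6, 11332, 14377 and 11019 CPM in brain and 9568, 8706, 10463, 10930.1 and 10649.6 CPM in tubules, and did not pass the test (logFC = 0.25, 95% interval -0.21 to 0.71, adjusted p = 0.267). With library size alone it was called higher in brain (logFC = 0.75, adjusted p = 0.0082). Hsc70-3 and Hsc70-5 were called higher in tubules (logFC -0.67 and -0.79), calls lost with library size alone (adjusted p = 0.541 for Hsc70-3 and 0.15 for Hsc70-5). The 4 tested ribosomal protein transcripts were all called higher in tubules without overlap, among them RpL35 at 174 to 352 against 636 to 885 CPM (logFC = -1.79, adjusted p = 0.000155), RpLP1 at 305 to 591 against 1103 to 1412 CPM (logFC = -1.65, adjusted p = 0.000279) and Rpl41 at 96.8 to 223 against 271 to 429 CPM (logFC = -1.51, adjusted p = 0.000443). Rpl39 differed least (logFC -0.88).

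**Figure D5:**
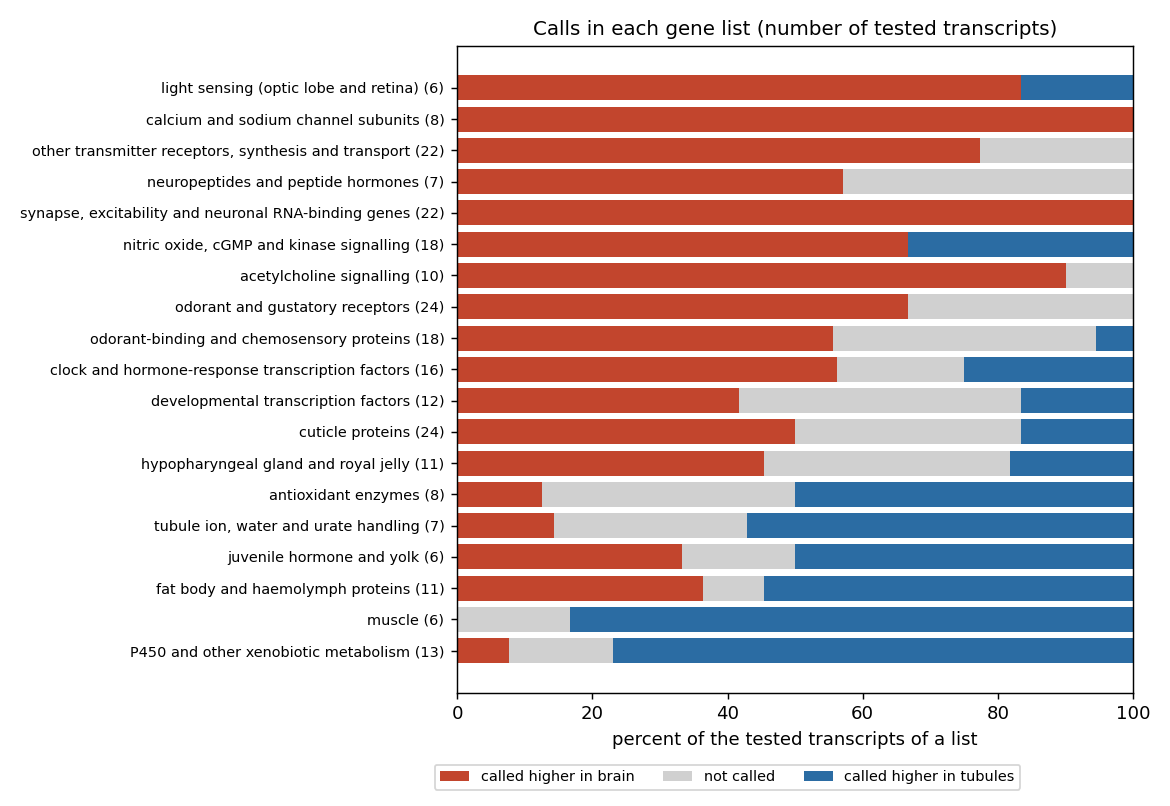
Share of the tested transcripts of each gene list (horizontal axis, percent; the number tested stands in brackets) that were called higher in brain (red), not called (grey) or called higher in Malpighian tubules (blue), for lists with at least 6 tested transcripts, ordered by median logFC. Lists of neuronal function are mostly red and that of xenobiotic metabolism mostly blue, beside 40.8% and 34.3% of all tested transcripts.

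A single mitochondrial feature with no gene symbol in the files was the most abundant feature of every tubule pool and of 4 of the 5 brains, P11 being the exception. It had 39065, 46205, 40267, 48846 and 47307 CPM in brain and 95899, 124275, 84939, 107260.1 and 108234 CPM in tubules (logFC = -1.23, adjusted p = 0.0251), without overlap. Its call was lost without P1, P7 or P24 and when only transcripts with at least 1 CPM in 5 libraries were kept, with adjusted p between 0.0642 and 0.121, and with P21 added (adjusted p = 0.368).

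Because the files count transcripts, the organs can also differ in which transcript of a gene they hold. Of 960 genes with at least 2 tested transcripts, 552 (57.5%) were called for a difference between their transcripts in the organ contrast. In 15 of them (1.56%) 1 transcript was over 4-fold higher in brain and another over 4-fold higher in tubules, and all 15 were called within the gene. LOC725540 was the one gene of these whose opposite transcripts both reached 20 CPM. Its transcript XM_001121373.5 had 27.1, 53.4, 31.6, 48.2 and 39.3 CPM in brain and 2.89, 4.3, 2.51, 12.7 and 5.38 CPM in tubules (logFC = 3.06, SE 0.29, adjusted p = 0.000131). Its transcript XM_006570358.3 had 1.63, 2.31, 1.79, 2.15 and 1.9 CPM in brain and 81.7, 52.1, 79.5, 58.2 and 72.4 CPM in tubules (logFC = -5.12, SE 0.21, adjusted p = 7.61e-06). Neither transcript overlapped between the organs (adjusted p = 1.85e-11 within the gene). These counts use only reads that fell on 1 transcript, and 42.0% to 50.3% of the fragments of these libraries were left aside as ambiguous.

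The order of the called genes along the chromosomes was also described. Taking the tested genes in their order along the chromosomes of the RefSeq table, the next gene was also over 4-fold higher in brain for 369 of 1181 genes (31.2%), against 13.9% of all placed genes. For tubules the next gene was called in the same direction for 153 of 654 genes (23.4%), against 7.72% of all. The longest run held 7 neighbouring genes for brain, among them Or19, and 6 for tubules, none of which has a symbol beyond its identifier. Neighbours can be related or overlap, and no test was run on this order.

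The difference between the organs was uneven over the patrilines for some transcripts. LOC411104 had 301, 274, 278, 205 and 401 CPM in brain and 0.816, 0.28, 0.968, 306 and 2.0 CPM in tubules, where the P11 tubule pool lay within the range of the brains (logFC = 7.47, adjusted p = 0.00988). Without P11 its logFC was 8.34. Its call was lost without the patriline block (logFC = 2.24, adjusted p = 0.233). LOC409626 had 0.228 to 0.49 CPM in brain and 6445, 2594, 9312, 143 and 62.6 CPM in tubules (logFC = -11.99, adjusted p = 0.000634), high in P1, P7 and P8. A chymotrypsin inhibitor (LOC725202) had 3.27, 3.51, 12.7, 112 and 5.21 CPM in brain and 1054, 455, 1443, 169 and 181 CPM in tubules (logFC = -6.01, adjusted p = 0.00679). Its logFC was -6.88 without P11 and -5.31 without P1, and that of LOC409626 was -12.99 with P24 left out, -12.6 with P11, -11.22 with P1 and -11.02 with P8 left out. LOC100217360 had 4.51, 4.67, 7.95, 745 and 7.68 CPM in brain and 0.162 to 0.562 CPM in tubules, so that its brain level outside P11 was below 10 CPM (logFC = 6.12, adjusted p = 0.00287), and its logFC was 4.54 without P11 and 6.86 without P1. LOC406147 had 279.8, 312, 263, 869 and 352 CPM in brain and 1.71, 57.4, 163, 288 and 4.87 CPM in tubules, and its call was lost without the block (logFC = 2.01, adjusted p = 0.115) and without P1, P7 or P24 (logFC = 3.38, adjusted p = 0.0445 with all 5). Its logFC was 4.32 with P8 left out, 4.03 with P11, 2.54 with P24 and 2.47 with P1 left out.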

How the data were processed

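The members, gene lists and tests were chosen with earlier results of these data known, and 11 of the 23 lists were added after values had been seen. Per the labels and the methods of the study, the authors used Trimmomatic for trimming, STAR for alignment and HTSeq for the counts of fragments per transcript. The deposited counts are whole numbers per transcript, not normalized. The library kit keeps strand, and the strand setting of the counting is not given in the sources used here. HTSeq leaves out fragments that fit more than 1 transcript, so a gene with several transcripts is counted only on the part that is its own. The classes counted on no transcript were left out. They were 42.0% to 50.3% of the fragments as ambiguous, 9.4% to 17.6% on no feature and 1.89% to 2.76% not unique.

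Of 28396 features, 27887 matched a transcript of the RefSeq table, 41 a gene and 468 kept their own name. Genes were named through that table and the study's tables. Its assembly may differ from the authors' build, so no coordinates, gene lengths or sequences are printed, and the planned description of proteins and promoters was not made.

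edgeR 4.0.16 (R 4.3.3) was used with filterByExpr (minimum count 10, minimum total 15), TMM factors, a patriline block, and the quasi-likelihood test at a Benjamini-Hochberg adjusted p under 0.05, which left 9986 transcripts. The over 4-fold call used glmTreat, and diffSpliceDGE compared transcripts of a gene. SE and intervals are on the log2 scale. The test was also run on simulated counts with 200 changed transcripts, whereas 7500 were called here. That run therefore does not show how the calls behave when most transcripts differ. Both organs of a pair came from the same 5 workers, and deviations from the organ means correlated at 0.0894 to 0.186 within pairs, against -0.12 to 0.0434 between patrilines. P-values rest on the spread of the brain minus tubule difference over 5 pairs of pools of 1 colony. Alternatives were no block, P21 added, each patriline left out, RLE factors, library size alone, other count filters, DESeq2 1.42.0, thinned counts, royal jelly transcripts removed and sums per gene.

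The text names transcripts by a rule: up to 12 with the largest and 12 with the smallest logFC among those over 4-fold, the same in all pairs and at 50 CPM or more, the 8 with the largest share of counts in each organ, the 6 with the largest spread over pairs, opposite transcripts of 1 gene at 20 CPM or more, members of the lists, and transcripts named in the study. It gives part of what the rule chose, and the list members given were selected after their values were seen. Lists are described by counts and medians without a test.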

Additional observations from a re-analysis of the deposited data

Results flagged for a closer look

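In 274 groups of 5 pools, over 137 named transcripts, the highest or lowest pool was tested against the rest, on the log2 of CPM plus 1, with Dixon's criterion, which chance passes in about 1 of 20 groups. It was passed in 42 groups (15.3%), of which the P11 brain pool gave 27 and the P11 tubule pool 8. Some of these transcripts were chosen for their spread over pairs and others after their values were seen, so the share is no test against 1 in 20.

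By this criterion the P11 brain was the high pool in 15 groups: Blop (284 CPM), Uvop (467), CYP6AS11 (11.2), Cyp6as5 (0.126), GstD1 XM_006563331.3 (0.177), Jhe (24.1), Hbg2 (19.3), Vg (416), Hex70a (387), TpnI (3.57), Cpap3-d (71.3), LOC102655631 (1.39), LOC726481 (1.8), LOC100217360 (745) and LOC406147 (869). It was the low pool in 12 groups: LCCH3 (7.18 CPM), Dop1 (65.9), TyrR (53.4), Tk (4.15), Pban (6.1), sGC-alpha1 (153), CYP9Q2 (1220), GstS1 (0.455), Kr (23.2), Or35 (20.0), LOC409077 (10300) and LOC725960 (7490). The P11 tubule pool was the high pool for nAChRb2 (13.9 CPM), Crz (0.122), Lop1 (3.86), Mrjp1 (1280), Mrjp3 (372), Mrjp5 (28.3), LOC406081 (94.5) and LOC411104 (306).

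The other 7 groups concern other pools. The P7 tubule pool was high for nAChRb1 (0.405 CPM) and Eaat-2 (0.062) and low for Cat (2.24), the P8 tubule pool was high for Cac (0.06), and the P24 tubule pool was low for Rpl41 (271). The P7 brain was low for Cdk5 (133 CPM), and the P8 brain was high for LOC107965400 (0.039). Those of Eaat-2, Cac and LOC107965400 rest on at most 2 reads.

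Of the fits, the P21 pair entered only the alternative with P21 added. Tubule transcripts in its brain pool stood at 14.9% of their tubule level above the other brains. Brain transcripts in its tubule pool stood at 10.3% of their brain level above the other tubules.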

How the results depend on the processing

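Over 137 named transcripts and 1907 comparisons with an alternative, 1857 kept direction and side of the threshold, 41 lost the call, 8 gained one and 1 turned. Sod2 had logFC 0.062 with library size alone, a setting that also gave 5000 transcripts higher in brain and 1977 higher in tubules. Of 690 list values, 640 kept theirs. Leaving out 1 patriline gave 3743 to 4124 transcripts called higher in brain and 3133 to 3552 higher in tubules, with 1163 to 1537 and 648 to 838 over 4-fold. DESeq2 called 4096 and 3710, no low-count filter 4180 and 3788, and adding P21 3985 and 3416 with 1069 and 574 over 4-fold. The pairing by patriline moved little: without the block 4018 and 3402 were called, 1389 and 703 over 4-fold, and 2026 of 2133 over 4-fold calls were kept.

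The estimates of RNA from another organ moved with the marker minimum. Tubule RNA in the P21 brain was 15.4% at 50 CPM and 16.9% at 500 CPM, and at 500 CPM brain RNA was 11% in the P21 tubule pool and 0.389% in the P11 tubule pool. Depth limits transcripts of few reads: 18410 features were not tested, and 41 brain and 10 tubule transcripts over 4-fold had no read in the other organ, so no fold is given for such transcripts.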
